A study of Homo sapiens with 24 samples.

Results

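The ID genes encode helix-loop-helix proteins without a basic DNA-binding region; they bind the E proteins and other basic helix-loop-helix factors and keep these from DNA. They are well-known direct targets of bone morphogenetic protein (BMP) signalling, in which a secreted ligand such as BMP4 binds serine/threonine kinase receptors, the receptors phosphorylate SMAD1, SMAD5 and SMAD9, and these enter the nucleus with SMAD4. SMAD7 is an inhibitory SMAD that is itself induced by the pathway and acts on the receptors, so the ligand, the targets and the inhibitor form a feedback circuit, one that is long known for its part in bone formation. Described here are the mRNAs of 5 genes of this circuit, ID1, ID2, ID3, BMP4 and SMAD7, out of 12547 endogenous genes with a row in the deposited table. They were picked by symbol, all 5 had a value in each of the 24 libraries, and all 5 passed the filter on low values. The set was proposed with results of these data in view and the values behind that choice are not recorded, so the adjusted p-values below set each difference against the spread between libraries and lend the choice no independent support.

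The series measured mRNA stability in U2OS, a human osteosarcoma cell line, by sequencing polyA RNA after a chase in actinomycin D, which blocks transcription, at 5 µg/mL together with sodium arsenite at 200 µM. Its question was how QKI, an RNA-binding protein of the STAR family with a KH domain, and its isoform QKI7 bear on that stability. The genotypes were sgQKI+QKI7-WT, in which QKI7-WT was added to sgQKI cells, sgQKI+QKI7-△KH, in which QKI7-△KH was added to sgQKI cells, sgQKI+EV, and sgNS+EV. Each genotype was sampled at 0, 4 and 8 h with 2 libraries per time, and every group, the 0 h groups included, carries the same treatment label. The labels spell out neither sgNS nor EV, nor whether the lines are single clones. They do not say whether the 2 libraries of a group came from separate cultures, so each p-value measures only the spread between these libraries, which may be technical.

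Values are the authors' signal per gene, on a linear scale on which the ERCC spike-in RNAs sum to nearly the same total in every library, between 11485 and 11940, whereas the endogenous genes sum to between 690400 and 1368000. Sequencing depth is unknown, and because it is not stated whether the signal is per transcript length, levels are not compared between genes. Replicate libraries correlated at 0.9889 to 0.9982 across genes, lowest in sgQKI+QKI7-WT at 4 h. Of 10 osteoblast-lineage markers, 5 had values (RUNX2, COL1A1, SPP1, SPARC and TNFRSF11B), with a summed signal of 1290 to 1560 at 0 h. No row was found under the symbols SP7, ALPL, COL1A2, IBSP and BGLAP. Of 7 epithelial markers 3 had values, summing to 26.6 to 32.2 at 0 h, and of 7 blood cell markers none had a value.

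QKI itself, the targeted gene, was checked first. At 0 h its signal was 35.98 and 32.7 in sgQKI+EV, against 60.0 and 48.2 in sgNS+EV, a log2 difference of −0.63 (SE 0.14, adjusted p = 0.0264). At 4 h it was 15.35 and 17.1 in sgQKI+EV, against 54.0 and 50.1 in sgNS+EV, a difference of −1.62. The sgQKI+EV libraries lay below the sgNS+EV libraries at each time, at 8 h too, where the difference was −0.98. With QKI7-WT added back the 0 h signal was 60.4 and 46.3, and with QKI7-△KH 47.55 and 50.2. At 4 h it was 50.5 and 32.8 with QKI7-WT, against 24.75 and 22.6 with QKI7-△KH. At 8 h it was 18.7 and 17.97 with QKI7-WT, against 17.8 and 19.05 with QKI7-△KH. A gene-level value does not separate the edited locus from the added copy.

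The 3′UTRs of the 5 mRNAs were read for AU-rich letters, since ATTTA pentamers and the longer TATTTAT, which holds an ATTTA, are known from many short-lived mRNAs as AU-rich elements. In the GENCODE 29 annotation of GRCh38, ID1 is at chr20:31605283-31606515 on the plus strand, ID2 at chr2:8678845-8684453 on the plus strand, ID3 at chr1:23557918-23559794 on the minus strand, BMP4 at chr14:53949736-53958761 on the minus strand and SMAD7 at chr18:48919853-48952052 on the minus strand. Searching the transcript strand alone, ATTTA occurred 3 times in the BMP4 3′UTR of 296 bases, once in those of ID1 (421 bases) and ID3 (523 bases), and 3 times in those of ID2 (776 bases) and SMAD7 (1519 bases). TATTTAT occurred 2 times in BMP4, 2 times in ID2 and 1 time in SMAD7. The sites of BMP4, ID1 and ID3 are shown because these are the 3 mRNAs that passed between sgQKI+EV and sgNS+EV at 8 h, described below; the capitals mark ATTTA within 10 bases of flank on each side, and each site is named by the 3′UTR base at which the motif starts.
BMP4 base 127 (chr14:53949891-53949915, minus strand): ctggacttttATTTAaaaaaaaaaa
BMP4 base 181 (chr14:53949837-53949861, minus strand): ccttgaccttATTTAtgactttacg
BMP4 base 240 (chr14:53949778-53949802, minus strand): gacaaaatatATTTAtaactacgta
ID1 base 405 (chr20:31606489-31606513, plus strand): taaacaaataATTTAgatggtggta
ID3 base 376 (chr1:23558051-23558075, minus strand): tgttgccctgATTTAtgaactctat
Each of these windows lies within a single exon.

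Among 418 annotated 3′UTRs of measured genes within 10% of the BMP4 length, 0.718% held at least 2 TATTTAT and 4.55% at least 3 ATTTA. Among 631 of like length to ID2, 4.44% held at least 2 TATTTAT and 23.8% at least 3 ATTTA. For SMAD7, 34.9% of 766 held at least 1 TATTTAT and 51.3% at least 3 ATTTA. The single ATTTA of ID1 and of ID3 is common, since 47.8% and 53.3% of 3′UTRs of like length held at least 1. The hexamers ACTAAC and ACTAAT, which carry the ACTAA core known from QKI binding sites, were found in none of the 5 3′UTRs. Over the 11233 3′UTRs read, 1 per measured gene, 17.3% held ACTAAC and 26.1% held ACTAAT. Among 3′UTRs of like length the shares were 3.11% and 5.5% for BMP4, 4.96% and 7.14% for ID1, 6% and 9.09% for ID3, 9.51% and 12.7% for ID2 and 15% and 27.2% for SMAD7. A missing match says only that these letters are not in these windows.

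Over the chase all 5 mRNAs fell in all 4 genotypes. Each of the 20 changes between 0 and 8 h passed the test and was a decrease, against a background of 90.5% of all genes that passed in sgQKI+QKI7-WT, 91.1% in sgQKI+QKI7-△KH, 90.9% in sgQKI+EV and 88.6% in sgNS+EV; that count therefore says little about these genes, and the sizes of the falls are given gene by gene. The median gene retained 55.2%, 55.9%, 53.3% and 58.5% of its 0 h signal at 8 h in those genotypes. In bulk RNA, fewer cells and less RNA per cell cannot be told apart.

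BMP4, the ligand, was the slowest of the 5 to decline. Its signal at 0, 4 and 8 h was 226 and 258, then 164 and 183, then 92.8 and 84.5 in sgQKI+QKI7-WT. In sgQKI+QKI7-△KH it was 354 and 326, then 204 and 215, then 122 and 126.5. The signal fell at each step in these 2 genotypes without overlap between times, and it did so too in sgQKI+EV and sgNS+EV. In sgQKI+EV the signal was 284 and 278, then 196 and 176, then 94.4 and 88.8. In sgNS+EV it was 214 and 238, then 156 and 152.5, then 117 and 131. BMP4 thus kept 36.6% of its 0 h mean at 8 h in sgQKI+QKI7-WT, 36.5% in sgQKI+QKI7-△KH and 32.6% in sgQKI+EV, and 54.8% in sgNS+EV. In sgNS+EV it ranked 5335 from the lowest of 12547 genes by that percentage, near the middle of the transcriptome. It was nearer the low end in the other genotypes, ranking 2078 in sgQKI+QKI7-WT, 1862 in sgQKI+QKI7-△KH and 1625 in sgQKI+EV.

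ID1, a direct BMP target, was among the fastest-falling mRNAs of the table. Its signal at 0, 4 and 8 h was 944 and 1113, then 38.5 and 57.05, then 27.6 and 28.35 in sgQKI+QKI7-WT. In sgQKI+QKI7-△KH it was 1161 and 1029, then 45.3 and 45.1, then 26.95 and 29.8. Most of the loss came before 4 h. In sgQKI+EV the signal was 1081 and 1081, then 48.7 and 42.6, then 24.15 and 21.9. In sgNS+EV it was 1172 and 1219, then 49.0 and 54.9, then 39.3 and 38.3. At 4 h the 4 genotypes lay close together, and at 8 h both sgNS+EV libraries were above every other library. By the percentage left at 4 h, ID1 ranked 2, 4, 3 and 2 from the lowest of 12547 genes in sgQKI+QKI7-WT, sgQKI+QKI7-△KH, sgQKI+EV and sgNS+EV.

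The early fall of ID1 was 21.5-fold to 24.2-fold, which for simple exponential loss is an apparent half-life of 0.87 to 0.903 h in the 4 genotypes. From 4 to 8 h it fell only 1.71-fold in sgQKI+QKI7-WT, 1.59-fold in sgQKI+QKI7-△KH and 1.98-fold in sgQKI+EV, and 1.34-fold in sgNS+EV. The log2 change over 0 to 4 h lay between −4.57 and −4.42 and that over 4 to 8 h between −0.96 and −0.41, so the loss did not follow a single rate.

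ID2 fell nearly as fast as ID1. Its 8 libraries at 0 h spanned 69.4 to 85.4, those at 4 h 3.36 to 6.47 and those at 8 h 1.16 to 2.89. It kept 5.95% of its 0 h mean at 4 h in sgQKI+QKI7-WT, 4.1% in sgQKI+QKI7-△KH and 4.82% in sgQKI+EV, and 8.67% in sgNS+EV, ranking 4, 3, 5 and 7 from the lowest of all genes. At 8 h its mean lay above only 6.42% to 11.3% of genes in the 4 genotypes, at the low end of the table, where the added 1 of the log scale compresses differences.

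ID3 declined less steeply. Its signal at 0, 4 and 8 h was 455 and 553, then 110.5 and 154, then 80.8 and 69.8 in sgQKI+QKI7-WT. In sgQKI+QKI7-△KH it was 546.5 and 475, then 103 and 117, then 56.4 and 59.8. The fall went on after 4 h in both. In sgQKI+EV the signal was 546 and 528.5, then 143 and 117, then 66.05 and 59.2. In sgNS+EV it was 553 and 618, then 134 and 144, then 113 and 139. In sgNS+EV the 4 h and 8 h libraries overlapped, and the log2 change between them was −0.15 (SE 0.14, adjusted p = 0.34), which did not pass. In the other genotypes ID3 fell between 4 and 8 h by 0.79 on the log2 scale with QKI7-WT, 0.91 with QKI7-△KH and 1.04 in sgQKI+EV, and all 3 passed.

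SMAD7, the inhibitor, spanned 19.1 to 24.7 over the 8 libraries at 0 h, 1.38 to 3.11 at 4 h and 1.17 to 2.09 at 8 h. It kept 10.7% of its 0 h mean at 4 h in sgQKI+QKI7-WT, 9.85% in sgQKI+QKI7-△KH and 8.53% in sgQKI+EV, and 13.4% in sgNS+EV. By that measure it ranked 15, 17, 14 and 17 from the lowest of all genes, whereas ID3 ranked 73, 69, 84 and 52 and BMP4 3483, 4256, 4358 and 3094. From 4 h on SMAD7 was near the bottom of the table, and at 8 h its mean lay above 3.06% to 5.15% of genes.

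**Figure D1:**
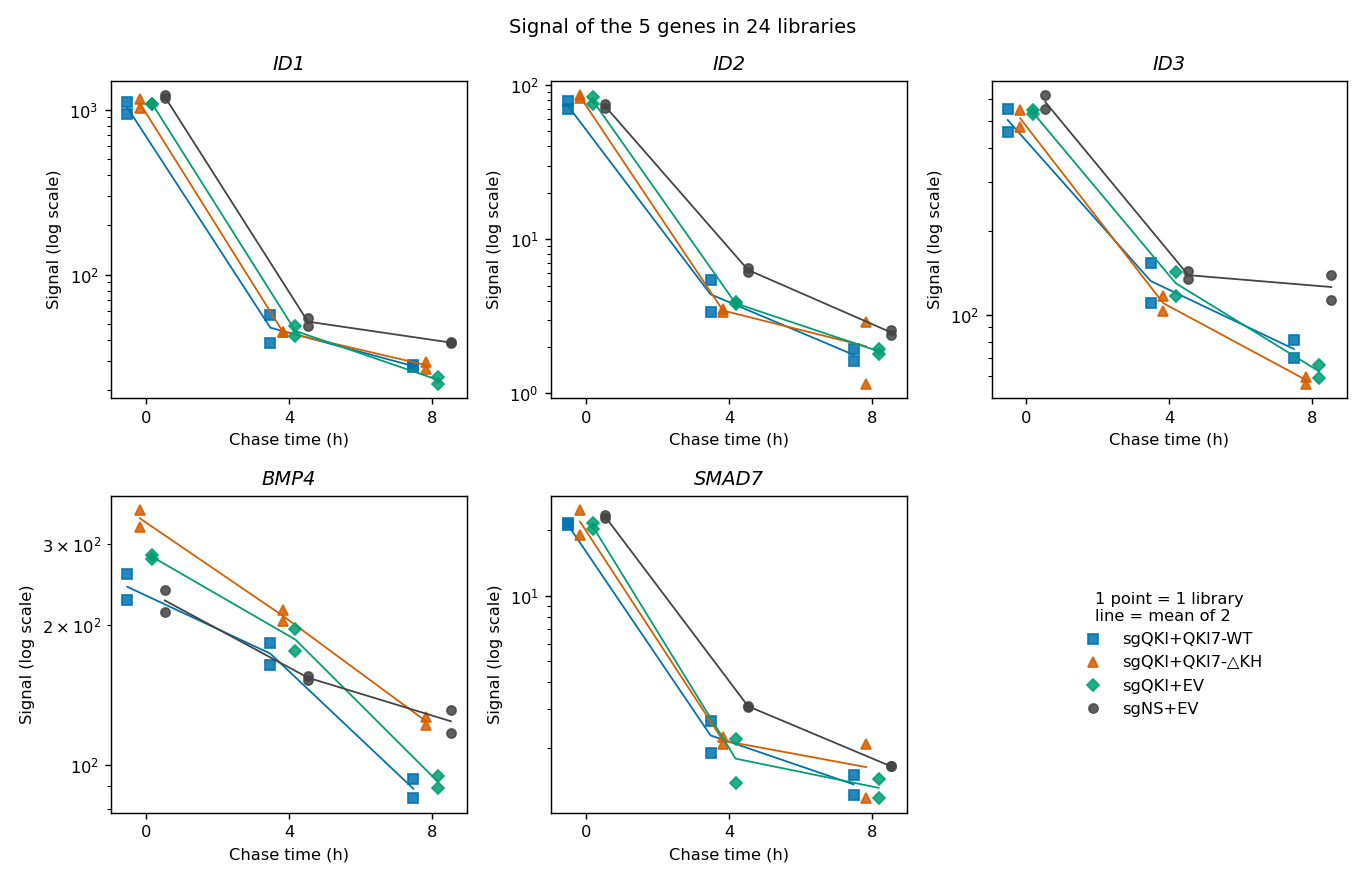
Signal of ID1, ID2, ID3, BMP4 and SMAD7 (log axis) against chase time in hours; a point is 1 library, a line joins the means of 2, and the genotypes are set slightly apart at each time. ID1, ID2 and SMAD7 drop steeply by 4 h, BMP4 declines slowly, and at 8 h the sgNS+EV points of ID1 (39.3 and 38.3) and ID3 (113 and 139) lie above those of the other genotypes.

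Split by interval, 37 of the 40 member-by-genotype changes from 0 to 4 h and from 4 to 8 h passed, all as decreases. The background over 0 to 4 h was 45.5% of genes in sgQKI+QKI7-WT, 74% in sgQKI+QKI7-△KH, 64.7% in sgQKI+EV and 60.3% in sgNS+EV, and over 4 to 8 h 84%, 58.7%, 79.3% and 66.3%. The 3 that did not pass were ID3 in sgNS+EV, SMAD7 in sgQKI+QKI7-△KH (−0.28) and SMAD7 in sgQKI+EV (−0.26), all over 4 to 8 h. Over 0 to 4 h the median of the 5 log2 changes was −2.77 in sgQKI+QKI7-WT, −2.85 in sgQKI+QKI7-△KH, −2.99 in sgQKI+EV and −2.55 in sgNS+EV, beside −0.23, −0.48, −0.39 and −0.31 over all genes. Between 4 and 8 h the medians were nearer, −0.79, −0.65, −0.96 and −0.41 for the 5 genes and −0.54, −0.3, −0.44 and −0.39 for all. Among the late changes, the call for ID1 in sgNS+EV was lost without replicate 2 at 4 h, that for BMP4 in sgNS+EV without replicate 1 at 8 h, that for SMAD7 in sgQKI+QKI7-WT without replicate 1 at 4 h or replicate 2 at 8 h, and that for ID2 in sgQKI+QKI7-△KH without replicate 1 at 8 h; the changes with a library left out spanned −0.49 to −0.33, −0.39 to −0.23, −0.64 to −0.3 and −1.04 to −0.19. Scaled to library totals, the late falls of ID1 in all but sgQKI+EV, of ID2 in sgQKI+EV and sgQKI+QKI7-△KH, of ID3 and SMAD7 in sgQKI+QKI7-WT and of BMP4 in sgNS+EV did not pass, nor did the early fall of BMP4 in sgNS+EV (adjusted p = 0.0538).

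**Figure D2:**
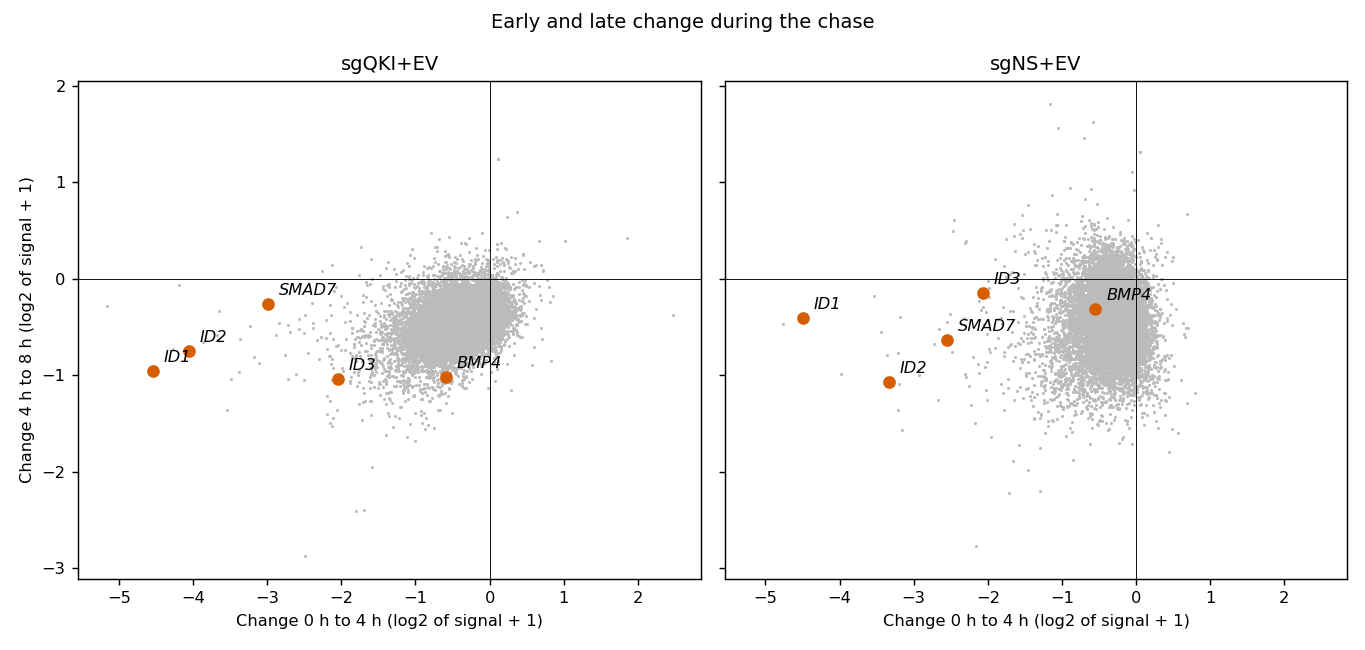
Log2 change from 0 to 4 h (x axis) against that from 4 to 8 h (y axis) for all 12547 genes in grey and the 5 named genes in orange, in sgQKI+EV on the left and sgNS+EV on the right. ID1, ID2 and SMAD7 lie far to the left in both panels; BMP4 and ID3 lie near −1 on the y axis in sgQKI+EV (−1.01 and −1.04) and nearer 0 in sgNS+EV (−0.31 and −0.15).

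Before the chase, BMP4 was the only one of the 5 whose level passed in any comparison of genotypes. At 0 h it was lower with QKI7-WT than with QKI7-△KH, at 226 and 258 in sgQKI+QKI7-WT, against 354 and 326 in sgQKI+QKI7-△KH. The libraries did not overlap, and the log2 difference was −0.49 (SE 0.08, adjusted p = 0.00412), with 3.75% of all genes passing and an all-gene median of −0.15. The call was lost without replicate 1 of sgQKI+QKI7-WT or replicate 1 of sgQKI+QKI7-△KH (−0.59 to −0.4 over the 4 libraries left out in turn, adjusted p up to 0.133). ID1, ID2, ID3 and SMAD7 did not pass in that comparison.

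With QKI7-△KH added, BMP4 was higher at 0 h than in sgQKI+EV, at 354 and 326 in sgQKI+QKI7-△KH, against 284 and 278 in sgQKI+EV. The groups did not overlap and the log2 difference was 0.27 (SE 0.08, adjusted p = 0.0404), while 12.7% of all genes passed and the all-gene median was 0.19. That call was lost whichever of the 4 libraries was left out (0.22 to 0.33, adjusted p up to 0.348), and with scaling to library totals the difference was 0.02.

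Without added QKI7, BMP4 at 0 h was 284 and 278 in sgQKI+EV, against 214 and 238 in sgNS+EV, with no overlap; the log2 difference of 0.31 (SE 0.08, 95% interval 0.14 to 0.49, adjusted p = 0.0639) did not pass, where 1.55% of all genes did. It did pass under 5 of 9 other settings, at 0.49 with library totals (adjusted p = 0.000906), 0.37 with quantiles (adjusted p = 4.12e-05) and 0.31 with only the compared groups, and in none of the 4 cases with a library left out. On the deposited scale none of the 5 passed there. None passed in sgQKI+QKI7-WT against sgQKI+EV either, where 0.0877% of genes did; BMP4 was 226 and 258 in sgQKI+QKI7-WT, against 284 and 278 in sgQKI+EV, a log2 difference of −0.22 (95% interval −0.39 to −0.04, adjusted p = 0.828). That difference passed under 3 of 9 other settings, all of them scalings, at −0.32 with library totals (adjusted p = 0.0465) and −0.23 with quantiles (adjusted p = 0.00748). In comparisons added after the values were seen, BMP4 was higher in sgQKI+QKI7-△KH than in sgNS+EV by 0.59 (adjusted p = 0.000231, 11.4% of genes passing), and sgQKI+QKI7-WT differed from sgNS+EV by 0.1 (adjusted p = 0.749, 1.63% passing). In order of mean level at 0 h, BMP4 was highest in sgQKI+QKI7-△KH, followed by 281 in sgQKI+EV, 242 in sgQKI+QKI7-WT and 226 in sgNS+EV. Of the neighbours in that order only the 2 highest passed on the deposited scale, a call lost with any of the 4 libraries left out and under each alternative scaling. The middle pair passed under 3 of 9 other settings and the 2 lowest under 1 of 9, so which neighbours differ depends on the setting.

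ID1, ID2, ID3 and SMAD7 stayed within a narrow range across genotypes at 0 h. Over the 8 libraries ID1 spanned 944 to 1219, ID3 455 to 618, ID2 69.4 to 85.4 and SMAD7 19.1 to 24.7. Between sgQKI+EV and sgNS+EV the log2 differences were −0.14 for ID1 (95% interval −0.4 to 0.11), 0.12 for ID2 (−0.25 to 0.5), −0.12 for ID3 (−0.4 to 0.16) and −0.14 for SMAD7 (−0.48 to 0.2), and none passed.

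After 4 h, 3 of the 5 genes passed between sgQKI+EV and sgNS+EV, in a comparison in which 40.8% of all genes did. ID2 was 3.77 and 3.9 in sgQKI+EV, against 6.16 and 6.47 in sgNS+EV, a log2 difference of −0.6 (SE 0.18, adjusted p = 0.0128). SMAD7 was 2.18 and 1.38 in sgQKI+EV, against 3.09 and 3.11 in sgNS+EV, a difference of −0.58 (SE 0.17, adjusted p = 0.00926). Both were lower in sgQKI+EV with no overlap. BMP4 was higher, at 196 and 176 in sgQKI+EV, against 156 and 152.5 in sgNS+EV, a difference of 0.27 (SE 0.08, adjusted p = 0.0154). None of these calls held with each library left out in turn, which leaves 1 library in a group. The size of the ID2 difference moved little all the same. With a library left out, ID2 failed in all 4 cases (−0.63 to −0.57), SMAD7 failed without replicate 1 of sgNS+EV or replicate 2 of sgQKI+EV (−0.79 to −0.37), and BMP4 passed only without replicate 2 of sgQKI+EV (0.19 to 0.35). In the other 3 comparisons at 4 h, sgQKI+QKI7-WT against sgQKI+EV (38.2% of genes passing), sgQKI+QKI7-△KH against sgQKI+EV (2.22%) and sgQKI+QKI7-WT against sgQKI+QKI7-△KH (0.98%), none of the 5 passed on the deposited scale. BMP4 was 164 and 183 in sgQKI+QKI7-WT, against 204 and 215 in sgQKI+QKI7-△KH, with no overlap and a log2 difference of −0.27 (SE 0.08, adjusted p = 0.0908), which passed with library totals (−0.36, adjusted p = 0.0233) and with quantiles (−0.33, adjusted p = 0.000308). Against sgQKI+EV, at 196 and 176, the BMP4 difference with QKI7-WT was −0.1 (adjusted p = 0.376), and it too passed with library totals (−0.36, adjusted p = 0.0185) and with quantiles (−0.31, adjusted p = 0.000625). With QKI7-△KH it was 0.17 (adjusted p = 0.26) and passed under no setting.

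After 8 h, ID3, ID1 and BMP4 were all lower in sgQKI+EV than in sgNS+EV, in a comparison in which 34.3% of all genes passed and the all-gene median was −0.2. Of the genes that passed, 36 were higher and 4265 lower in sgQKI+EV; scaled to library totals the split was 423 higher and 252 lower. ID3 was 66.05 and 59.2 in sgQKI+EV, against 113 and 139 in sgNS+EV, a log2 difference of −0.99 (SE 0.14, adjusted p = 5.51e-05). ID1 was 24.15 and 21.9 in sgQKI+EV, against 39.3 and 38.3 in sgNS+EV, a difference of −0.73 (SE 0.12, adjusted p = 0.000247). For neither gene did the groups overlap, and by size of the difference ID3 ranked 26 and ID1 ranked 75 from the lowest of 12547 genes. BMP4 was 94.4 and 88.8 in sgQKI+EV, against 117 and 131 in sgNS+EV, a difference of −0.43 (SE 0.08, adjusted p = 0.000852), with no overlap. All 3 passed whichever of the 4 libraries was left out, and ID3 and ID1 passed under each alternative scaling, whereas BMP4 did not when scaled to library totals (−0.16, adjusted p = 0.207). ID2 (−0.28) and SMAD7 (−0.2) did not pass.

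Adding QKI7-WT left all 5 genes without a call against sgQKI+EV at 8 h, where 0.526% of all genes passed. ID1 was 27.6 and 28.35 in sgQKI+QKI7-WT, against 24.15 and 21.9 in sgQKI+EV, a log2 difference of 0.27 (95% interval 0.02 to 0.52, adjusted p = 0.252). ID3 was 80.8 and 69.8 in sgQKI+QKI7-WT, against 66.05 and 59.2 in sgQKI+EV, a difference of 0.26 (95% interval −0.02 to 0.54, adjusted p = 0.325). For both genes the libraries did not overlap, yet the differences did not pass (each did under 1 of 9 other settings), and the intervals reach 0.52 and 0.54.

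BMP4 again separated the 2 forms of QKI7 at 8 h. It was 92.8 and 84.5 in sgQKI+QKI7-WT, against 122 and 126.5 in sgQKI+QKI7-△KH, a log2 difference of −0.48 (SE 0.08, adjusted p = 0.00338), with 4.89% of genes passing and an all-gene median of −0.15. It was 122 and 126.5 in sgQKI+QKI7-△KH, against 94.4 and 88.8 in sgQKI+EV, a difference of 0.43 (SE 0.08, adjusted p = 0.00116), with 44.3% of genes passing and an all-gene median of 0.25. The groups did not overlap in either comparison. The first call was lost without replicate 2 of sgQKI+QKI7-WT or replicate 2 of sgQKI+QKI7-△KH (−0.55 to −0.41, adjusted p up to 0.111), and the second under scaling to library totals or by quantiles (down to 0.12). The BMP4 difference between QKI7-WT and QKI7-△KH was thus −0.49 at 0 h, −0.27 at 4 h, where it did not pass, and −0.48 at 8 h, and the change from 0 to 8 h, described below, did not differ between the 2 lines beyond its error. Over the other settings it spanned −0.49 to −0.3 at 0 h, −0.39 to −0.27 at 4 h and −0.49 to −0.33 at 8 h. At 0 and 8 h it passed under all 9 of them. The other 4 genes did not pass in either comparison at 8 h. ID3 was 80.8 and 69.8 in sgQKI+QKI7-WT, against 56.4 and 59.8 in sgQKI+QKI7-△KH. That difference of 0.36 (95% interval 0.08 to 0.65, adjusted p = 0.109) passed under 3 of 9 other settings (up to 0.49). ID1 was 26.95 and 29.8 in sgQKI+QKI7-△KH, against 24.15 and 21.9 in sgQKI+EV, with no overlap. The log2 difference of 0.29 (limma adjusted p = 0.0557), beside 0.27 with QKI7-WT, passed under 3 of 9 other settings (0.01 to 0.3).

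Set against sgNS+EV at 8 h, in comparisons added after the values were seen, ID1 and ID3 were lower in both lines with added QKI7. With QKI7-WT the log2 differences were −0.46 for ID1 (adjusted p = 0.0271), −0.73 for ID3 (adjusted p = 0.00287) and −0.48 for BMP4 (adjusted p = 0.00193), where 6.58% of genes passed. With QKI7-△KH they were −0.44 for ID1 (adjusted p = 0.0386), −1.09 for ID3 (adjusted p = 5.77e-05) and 0 for BMP4 (adjusted p = 0.99), where 4.65% of genes passed. These comparisons share the 2 sgNS+EV libraries with each other and with sgQKI+EV against sgNS+EV. Both ID1 calls were lost whichever library was left out (−0.48 to −0.44 and −0.51 to −0.37), and with QKI7-WT the ID3 and BMP4 calls were lost without replicate 2 of sgNS+EV or replicate 2 of sgQKI+QKI7-WT (−0.88 to −0.58 and −0.56 to −0.4). The ID1 call with QKI7-WT was also lost with library totals, by quantiles and with library totals without ribosomal RNA (up to −0.32, adjusted p up to 0.124). That with QKI7-△KH passed under each of the 9 other settings.

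The question of stability rests on the decay difference, the log2 change of a genotype over the chase minus that of another, taken as an interaction in the same limma fit. Over 0 to 8 h, BMP4 and ID3 fell further in sgQKI+EV than in sgNS+EV, 2 of the 5 genes in a comparison in which 0.677% of all genes passed. Those 85 genes became 1 to 11 with a library left out, and 30 higher and 1343 lower with only the compared groups in the fit. For BMP4 the log2 change was −1.61 in sgQKI+EV and −0.86 in sgNS+EV, a decay difference of −0.74 (SE 0.12, 95% interval −0.99 to −0.5, adjusted p = 0.00923), which ranked 11 from the lowest of 12547 genes. For ID3 it was −3.08 in sgQKI+EV and −2.21 in sgNS+EV, a decay difference of −0.87 (SE 0.19, 95% interval −1.27 to −0.47, adjusted p = 0.0392), ranking 6. As apparent half-lives over 0 to 8 h from the group means, BMP4 had 4.95 h in sgQKI+EV and 9.23 h in sgNS+EV, and ID3 had 2.58 h in sgQKI+EV and 3.61 h in sgNS+EV. These values average over intervals with unlike rates. In sgQKI+EV and sgNS+EV, BMP4 had 6.74 and 7.22 h over 0 to 4 h, then 3.91 and 12.8 h over 4 to 8 h. ID3 had 1.95 and 1.93 h, then 3.8 and 27.9 h, the last from a fall that did not pass. ID1 had a decay difference of −0.59 (SE 0.17, 95% interval −0.94 to −0.23, adjusted p = 0.112), ID2 of −0.4 (adjusted p = 0.433) and SMAD7 of −0.06 (adjusted p = 0.929), and these did not pass; ID1 passed under 2 and ID2 under 1 of 9 other settings. The all-gene median was −0.14.

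Both calls were close to what 2 libraries per group can carry. BMP4 passed under each of the 9 other settings of the fit, with values of −0.75 to −0.51, and ID3 did not under library totals (−0.77), quantile scaling (−0.62) or library totals without ribosomal RNA (−0.74). With each of the 8 libraries left out in turn the ID3 call was lost every time (−1.01 to −0.72, adjusted p 0.066 to 0.219), and the BMP4 call was lost without replicate 1 of sgNS+EV at 0 h, replicate 2 of sgNS+EV at 8 h, replicate 1 of sgQKI+EV at 0 h or replicate 2 of sgQKI+EV at 8 h (−0.83 to −0.66 over all 8, adjusted p up to 0.119).

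Adding either form of QKI7 gave no decay difference against sgQKI+EV that passed, for these or any other genes by limma over 0 to 8 h (0% of all genes), and none between the 2 forms (0%). At an unadjusted p under 0.05 there were 344 genes for QKI7-WT against sgQKI+EV, 323 for QKI7-△KH against sgQKI+EV and 120 between the forms. With only the compared groups in the fit, 32 genes were higher and 12 lower for QKI7-△KH against sgQKI+EV, and with a library left out that count reached 22. Against sgQKI+EV the decay differences with QKI7-WT were 0.17 for BMP4 (95% interval −0.08 to 0.42), 0.36 for ID3 (−0.04 to 0.76) and 0.35 for ID1 (−0.01 to 0.7). With QKI7-△KH they were 0.16 for BMP4 (−0.09 to 0.41), −0.03 for ID3 (−0.43 to 0.37) and 0.27 for ID1 (−0.08 to 0.63). Between QKI7-WT and QKI7-△KH they were 0.01 for BMP4 (−0.24 to 0.26), 0.39 for ID3 (−0.01 to 0.79) and 0.07 for ID1 (−0.28 to 0.43). Against sgNS+EV, the added comparisons gave −0.58 for BMP4 with QKI7-WT (adjusted p = 0.302) and −0.58 with QKI7-△KH (adjusted p = 0.058), and −0.51 (adjusted p = 0.979) and −0.9 (adjusted p = 0.0747) for ID3; none passed, where 0% and 0.12% of genes did, though of 9 other settings BMP4 passed under 2 with QKI7-WT and 4 with QKI7-△KH, and ID3 under 3 with QKI7-△KH.

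Divided by interval, in comparisons added after the values were seen, the decay differences of BMP4 and ID3 against sgNS+EV were larger in the second 4 h on the deposited scale. Over 0 to 4 h they were −0.04 and 0.02 in sgQKI+EV, 0.07 and 0.13 in sgQKI+QKI7-WT and −0.15 and −0.14 in sgQKI+QKI7-△KH, and none of these passed. Over 4 to 8 h BMP4 differed by −0.7 in sgQKI+EV (adjusted p = 0.0265), −0.65 in sgQKI+QKI7-WT (adjusted p = 0.0204) and −0.44 in sgQKI+QKI7-△KH (adjusted p = 0.0372). ID3 differed by −0.89 in sgQKI+EV (adjusted p = 0.0265), −0.64 in sgQKI+QKI7-WT (adjusted p = 0.0354) and −0.76 in sgQKI+QKI7-△KH (adjusted p = 0.0308). The background over 4 to 8 h was 13% of genes in sgQKI+EV, 14.9% in sgQKI+QKI7-WT and 7.63% in sgQKI+QKI7-△KH. That background depends on the scale. In sgQKI+EV 174 genes were higher and 1454 lower, against 3325 higher and 142 lower with library totals and 11 higher and 29 lower with quantiles. In sgQKI+QKI7-WT 7 were higher and 1868 lower, against 1 and 0 with library totals, and in sgQKI+QKI7-△KH 818 were higher and 139 lower, against 4232 and 75. With a library left out the calls spanned 0 to 2400, 0 to 3096 and 0 to 174 genes. The 3 comparisons share the 4 sgNS+EV libraries at 4 and 8 h, in which ID3 and BMP4 changed least between those times.

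ID1 passed over 4 to 8 h in sgQKI+EV alone (−0.55, SE 0.17, adjusted p = 0.0416), with −0.32 (adjusted p = 0.229) in sgQKI+QKI7-WT and −0.24 (adjusted p = 0.341) in sgQKI+QKI7-△KH; whether these values differ from each other was not tested. ID2 had its differences in the first interval instead, −0.92 in sgQKI+QKI7-△KH (SE 0.26, adjusted p = 0.0188), −0.72 in sgQKI+EV (adjusted p = 0.0666) and −0.48 in sgQKI+QKI7-WT (adjusted p = 0.291), of which the first passed. The background over 0 to 4 h was 21.4%, 10.7% and 0.00797% of genes in those genotypes. These counts too rest on single libraries, as with a library left out they spanned 0 to 2382, 0 to 921 and 0 to 2867 genes, and with library totals 7 genes were higher and 1466 lower in sgQKI+QKI7-WT. SMAD7 passed in neither interval. Every interval call over 4 to 8 h was lost without replicate 1 of sgNS+EV at 4 h and also without replicate 2 of sgNS+EV at 8 h, and the ID2 call over 0 to 4 h without that same 4 h library, replicate 2 of sgNS+EV at 0 h, replicate 1 of sgQKI+QKI7-△KH at 0 h or its replicate 2 at 4 h (−0.97 to −0.88). Scaled to library totals or by quantiles, neither call with QKI7-WT over 4 to 8 h passed (−0.31 and −0.25 for BMP4, −0.31 and −0.21 for ID3), nor did ID1 in sgQKI+EV, and the 2 QKI7-WT calls were also lost with only the compared groups in the fit. By quantiles alone, the ID3 calls over 4 to 8 h in sgQKI+EV (adjusted p = 0.0645) and sgQKI+QKI7-△KH (adjusted p = 0.0521) and the ID2 call over 0 to 4 h (adjusted p = 0.0739) were lost too, whereas BMP4 in sgQKI+EV and in sgQKI+QKI7-△KH passed under every setting. Over the other settings BMP4 over 4 to 8 h spanned −0.71 to −0.35 in sgQKI+EV and −0.44 to −0.24 in sgQKI+QKI7-△KH. The BMP4 differences over 0 to 4 h were not followed under those settings, so their timing is given for the deposited scale only. The values with a library left out kept their sign throughout.

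**Figure D3:**
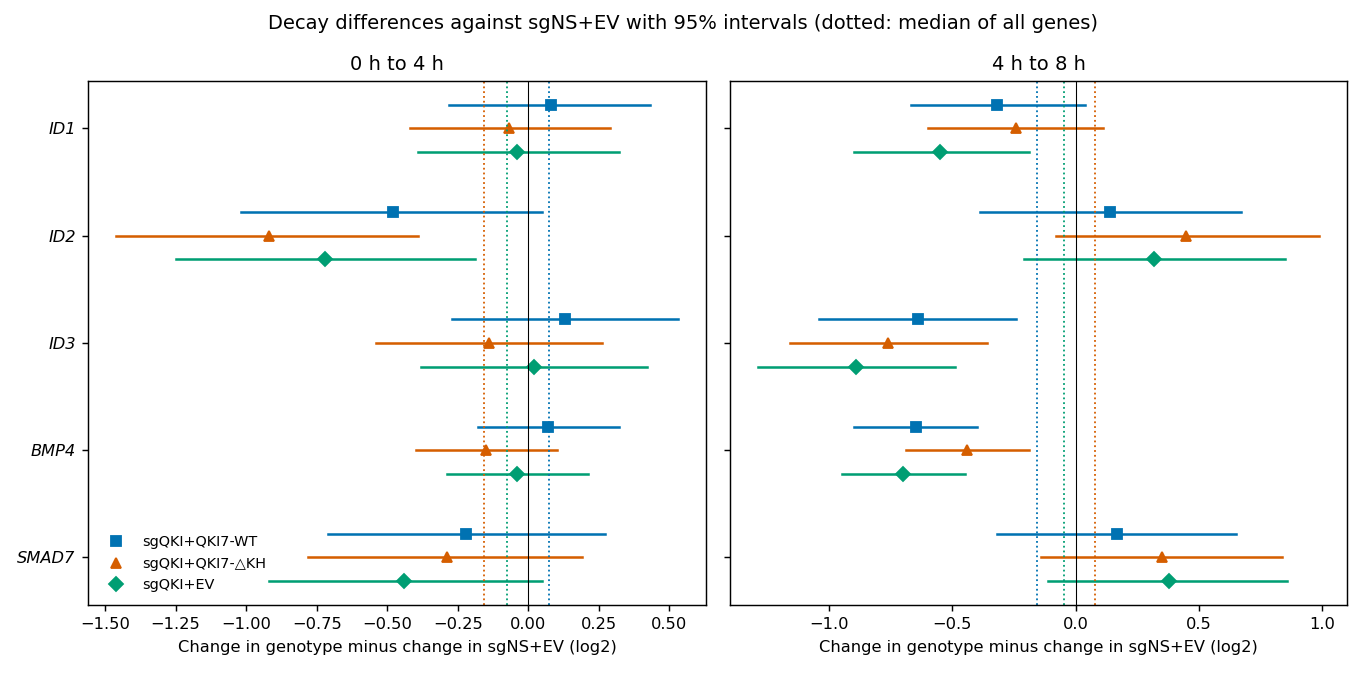
Decay differences of the 5 genes against sgNS+EV (log2, x axis), over 0 to 4 h on the left and 4 to 8 h on the right, for sgQKI+QKI7-WT, sgQKI+QKI7-△KH and sgQKI+EV; bars are 95% intervals and dotted lines the all-gene medians. BMP4 and ID3 lie near 0 over 0 to 4 h and between −0.89 and −0.44 over 4 to 8 h in all 3 genotypes.

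The rest of the pathway was read from 7 lists with 88 symbols, of which 67 had values. Over 0 to 8 h, 67 of 67 fell in sgQKI+EV and 65 of 67 in sgNS+EV, with medians of −1.32 and −1.2 against −0.82 and −0.7 over all genes, beside the backgrounds given above. The 11 measured receptors all fell in both genotypes, with medians of −1.93 in sgQKI+EV and −1.81 in sgNS+EV, while the 9 measured ligands had medians of −0.79 and −0.9. The 11 intracellular inhibitors, the class to which SMAD7 belongs by function, all fell in both genotypes, with medians of −1.7 and −1.42. The 10 E proteins and other basic helix-loop-helix genes, a list that includes binding partners of ID proteins, had medians of −1.08 and −1.18. Scaled by quantiles, 43 of 67 fell and 10 rose in sgQKI+EV and 43 fell and 9 rose in sgNS+EV, so the share that fell depends on the spike-in scale.

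**Figure D4:**
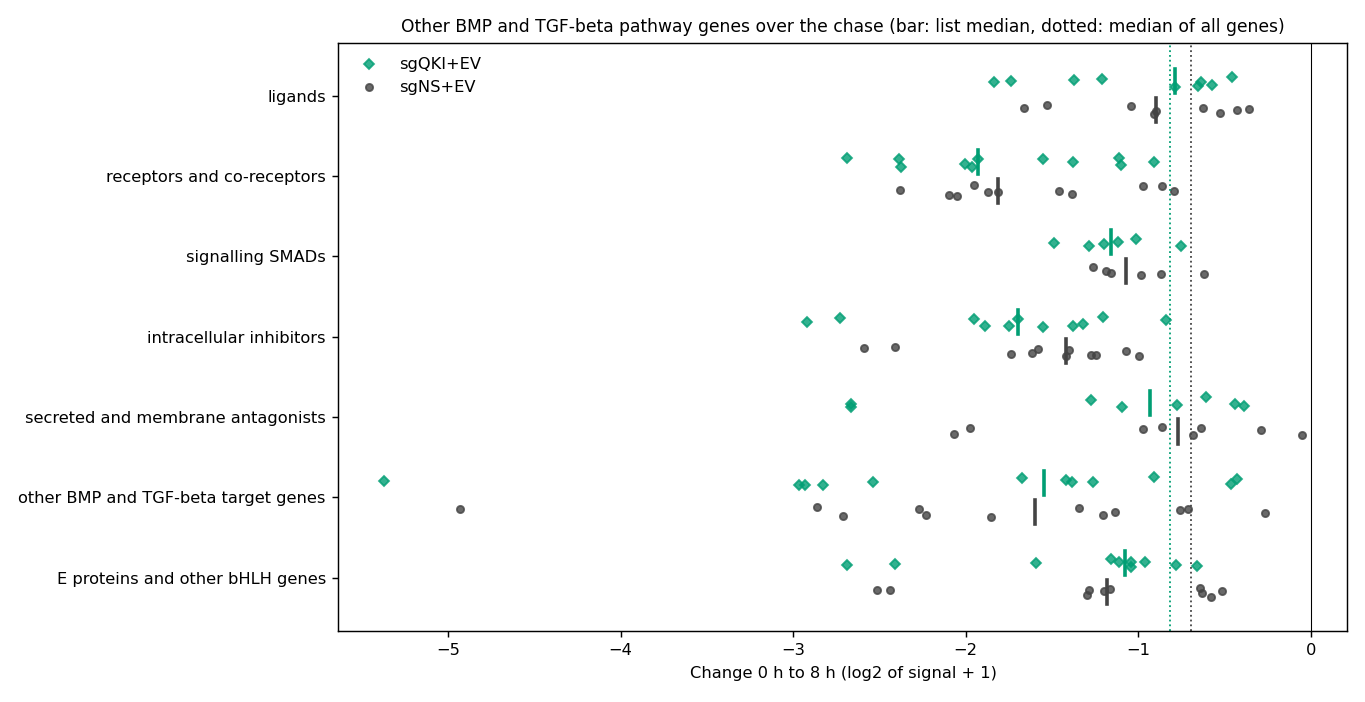
Log2 change from 0 to 8 h of the 67 measured pathway genes by role, in sgQKI+EV (above, green) and sgNS+EV (below, grey); a point is a gene, a bar the list median and a dotted line the all-gene median. Nearly all points lie below 0, and the receptors have medians of −1.93 in sgQKI+EV and −1.81 in sgNS+EV.

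Few of these genes differed in decay between sgQKI+EV and sgNS+EV: 3 of 67 passed over 0 to 8 h, all with a larger fall in sgQKI+EV, where 0.677% of all genes passed, and the median over the 67 was −0.14, the same as over all genes. BMPR1A, a type I receptor for BMP4, was 71.9 and 67.6 at 0 h and 10.03 and 9.92 at 8 h in sgQKI+EV, against 67.3 and 66.6 at 0 h and 16.4 and 14.5 at 8 h in sgNS+EV, a decay difference of −0.64 (SE 0.12, adjusted p = 0.0168). NOG, the secreted antagonist Noggin that binds BMP4, was 102 and 104 and then 15.6 and 15.2 in sgQKI+EV, against 116 and 113 and then 25.8 and 27.1 in sgNS+EV, a decay difference of −0.59 (SE 0.12, adjusted p = 0.0272). TGIF1, a nuclear corepressor of SMAD proteins, was 86.5 and 86.7 and then 23.65 and 21.65 in sgQKI+EV, against 93.85 and 91.4 and then 38.0 and 37.35 in sgNS+EV, a decay difference of −0.61 (SE 0.1, adjusted p = 0.0126). For all 3 the 8 h libraries of sgQKI+EV lay below those of sgNS+EV. With a library left out BMPR1A and NOG failed in all 8 cases (−0.72 to −0.56 and −0.63 to −0.56) and TGIF1 passed in 1 of 8 (−0.68 to −0.55). NOG did not pass under any of the 3 alternative scalings, and BMPR1A did not with library totals without ribosomal RNA.

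At 0 h, 4 of the 67 were lower in sgQKI+EV than in sgNS+EV and none higher, a share to read beside the 1.37% of all genes that were lower. They were BHLHE41 (−0.55, adjusted p = 0.00281) and BHLHE40 (−0.41, adjusted p = 0.0157), basic helix-loop-helix repressors, JUNB (−0.47, adjusted p = 0.0368), an AP-1 subunit, and NEDD4L (−0.39, adjusted p = 0.0198), a ubiquitin ligase that acts on SMAD proteins. At 8 h, 25 of 67 were lower and none higher, a share near the 34% of all genes that were lower. The most changed of each role included BMPR1A (−0.58) among receptors, NOG (−0.74) among antagonists, TGIF1 (−0.71) among intracellular inhibitors, GDF11 (−0.5) among ligands, SMAD3 (−0.41) among signalling SMADs, KLF10 (−0.63) among targets and BHLHE41 (−0.86) among basic helix-loop-helix genes. Scaled to library totals, 7 were higher and 2 lower at 0 h and 5 higher and 9 lower at 8 h, so the one-sided direction of these counts also rests on the spike-in scale.

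Between QKI7-WT and QKI7-△KH at 0 h, where BMP4 was lower with QKI7-WT, 6 of 67 were lower and none higher, with 3.71% of all genes lower. FST, the activin and BMP antagonist follistatin, was 48.02 and 49.6 in sgQKI+QKI7-WT, against 79.0 and 77.35 in sgQKI+QKI7-△KH, a log2 difference of −0.67 (SE 0.08, adjusted p = 6.92e-05). The others included TGFBR2 (−0.35), NEDD4L (−0.35), CTGF (−0.34) and PMEPA1 (−0.27). Scaled to library totals the count was 1 higher and 1 lower.

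The genes most like each of the 5 over the 24 libraries were found by Pearson correlation of log2(signal + 1) among 8557 genes with a mean signal of at least 10. For BMP4 they were MOV10 (0.989), MMP14 (0.979) and EPHA2 (0.979). For ID1 they were RAI1 (0.997), SOCS3 (0.996) and NDST2 (0.995), for ID2 ETAA1 (0.997), NFKBIA (0.996) and KIAA0232 (0.995), and for ID3 RHOB (0.989), ZNF703 (0.987) and PIM3 (0.987). For SMAD7 they were NDST2, ID2 and EGR1 (0.995 each). Among themselves ID1, ID2, ID3 and SMAD7 correlated at 0.963 to 0.995, and BMP4 with them at 0.816 to 0.861. The 24 points share 12 groups and the same chase.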

How the data were processed

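PolyA RNA of U2OS cells was sequenced in 24 libraries (4 genotypes, 3 times, 2 libraries each) made with the KAPA Stranded mRNA-Seq Kit, per the labels' protocols. STAR, RSEM and GRCh38 are named in the submitters' processing notes; versions and parameters are not given in the sources used here. The authors deposited 1 table of signal per gene symbol, with 12585 rows of which 38 are ERCC spike-ins. From the values, the deposited signal was scaled to the spike-ins; the unit before that step is not stated, and depth is unknown, so no interval for counting error is given. An error in spike-in amount would move all genes of a library together. Some rows (38) repeat the values of another, none of them one of the 5 genes or QKI, and 0 value columns were left unmapped.

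log2(signal + 1) was fitted with limma 3.58.1 in R 4.3.3 as 12 group means over all 24 libraries (12 residual degrees of freedom, prior 9), with a mean-variance trend; fold changes are on that scale and understate changes of low genes. Genes needed a signal of 1 in 2 libraries (0 were removed). p-values are two-sided and Benjamini-Hochberg adjusted over 12547 genes within each contrast, with a threshold of 0.05 and no adjustment across the 40 contrasts, of which 12 were added after the values were seen. The code was tested on simulated data. The labels do not say whether replicate numbers pair libraries, and the main fit did not pair them. Deviations between replicates correlated at −0.4239 to 0.4826 over 66 group pairs, 21 of them above 0.1. Alternatives were library totals, quantile normalisation, a pseudocount of 0.1, no filter, a minimum of 5, a replicate block, only the compared groups, and each library left out; totals without ribosomal RNA rows and a fit without sgQKI+QKI7-WT at 4 h were chosen after seeing the data. 3′UTRs came from GENCODE 29, with 1 protein-coding transcript taken per measured gene. Figures came from matplotlib 3.10.9 in Python 3.11.15.

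The members, gene lists and tests were chosen with earlier results of these data known. Genes named were the 5 members, QKI, from each pathway list at most 4 per direction among those that passed, by size, and the 3 most alike of each member.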

Additional observations from a re-analysis of the deposited data

Results flagged for a closer look

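All of the following were picked out because the change over the chase differed between genotypes by the interaction test in limma (Benjamini-Hochberg adjusted p under 0.05); no explanation was tested. Over 0 to 8 h, BMP4 (−0.74) and ID3 (−0.87) fell further in sgQKI+EV than in sgNS+EV. Over 4 to 8 h, BMP4 (−0.7), ID3 (−0.89) and ID1 (−0.55) fell further in sgQKI+EV than in sgNS+EV, BMP4 (−0.65) and ID3 (−0.64) in sgQKI+QKI7-WT than in sgNS+EV, and BMP4 (−0.44) and ID3 (−0.76) in sgQKI+QKI7-△KH than in sgNS+EV. Over 0 to 4 h, ID2 (−0.92) fell further in sgQKI+QKI7-△KH than in sgNS+EV. The interval comparisons were added after the values were seen and all share the sgNS+EV libraries, in which ID3 was 134 and 144 at 4 h and 113 and 139 at 8 h. With 1 of the 8 libraries left out in turn, the sgQKI+EV calls over 4 to 8 h held in 3 of 8 cases for BMP4, 3 of 8 for ID3 and 1 of 8 for ID1, the sgQKI+QKI7-WT calls in 4 of 8 for BMP4 and 3 of 8 for ID3, and the sgQKI+QKI7-△KH calls in 0 of 8 for BMP4 and 1 of 8 for ID3; the ID2 call held in 4 of 8.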

How the results depend on the processing

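Counts of calls among the 5 genes were 2 for genotypes at 0 h, 8 at 4 and 8 h, 20 over 0 to 8 h, 37 over the single intervals and 2 for decay differences. With a library left out, where the lone library of that group is assumed to vary like the other groups, they were 0 to 2 at 0 h, 5 to 10 at 4 and 8 h (5 without replicate 1 of sgNS+EV at 4 h), 20 and 36 to 38 over the chase and 0 to 2 for decay differences. The count of decay differences was also 1 with library totals, 1 with quantile normalisation, 1 with library totals without ribosomal RNA, and 4 with only the compared groups in the fit. The replicate block moved none of the 5 counts by over 1.5 times (decay differences stayed at 2). Library totals shifted the all-gene median change over 0 to 8 h in sgNS+EV to −0.23, and quantiles to 0.05, against −0.7 as deposited.

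Values that changed sign had not passed, and the cause was not tested. With library totals, sgQKI+EV minus sgNS+EV at 0 h was 0.03 for ID1, 0.05 for ID3 and 0.03 for SMAD7, BMP4 in sgQKI+QKI7-△KH minus sgQKI+EV at 4 h was 0, and ID3 from 4 to 8 h in sgNS+EV was 0 (0.04 without ribosomal RNA). ID1 in sgQKI+QKI7-WT minus sgQKI+QKI7-△KH at 8 h was 0.08 with totals, 0.13 with quantiles and 0.05 without ribosomal RNA, and the BMP4 decay difference between these lines was −0.04, −0.03 and −0.06. With quantiles SMAD7 from 4 to 8 h in sgQKI+EV was 0.11 and BMP4 in sgQKI+QKI7-△KH minus sgNS+EV at 8 h −0.02. With a library left out, BMP4 at 8 h spanned −0.11 to 0.02 for sgQKI+QKI7-WT minus sgQKI+EV and −0.08 to 0.09 for sgQKI+QKI7-△KH minus sgNS+EV; ID1 at 8 h spanned −0.09 to 0.05 for sgQKI+QKI7-WT minus sgQKI+QKI7-△KH, and the decay differences between these lines −0.08 to 0.1 for BMP4 and −0.04 to 0.19 for ID1; the ID3 decay difference of sgQKI+QKI7-△KH minus sgQKI+EV spanned −0.13 to 0.07; and for sgQKI+EV minus sgNS+EV, ID3 at 4 h spanned −0.24 to 0.04 and the SMAD7 decay difference −0.14 to 0.02. Of 1120 single values under other settings, 1014 kept direction and side of the threshold, 56 no longer passed and 36 newly passed; of 616 with a library left out, 506 kept both, 91 no longer passed and 3 newly passed. Values that the text gives only as counts were not followed singly. Low signal limits ID2 and SMAD7 after 4 h.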
